A study of Rattus norvegicus with 13 samples.

Results

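A set of 10 genes, Klf15 and 9 genes of branched-chain amino acid (BCAA) breakdown, were followed through bulk RNA-seq of rat hearts, in 13 libraries. The genes were chosen by name for their place in the pathway, with earlier results of these data known. All 10 were found among the 23018 gene names shared by the 3 deposited tables. The hearts called ST here came from rats given the virus AAV2/9-cTnT-MscL-G22S-mCherry, which carries the mutant bacterial mechanosensitive channel MscL-G22S with a red fluorescent tag under the cardiac troponin T promoter of heart muscle cells. The groups were ST at 2 months (2 libraries) against WT at 2 months (2 libraries), ST at 6 months (3 libraries) against WT at 6 months (3 libraries), and ST at 8 months (3 libraries). No WT group at 8 months is among the 13 samples. ST at 8 months was therefore set against ST at 6 months and against WT at 6 months. The labels give WT rats no treatment, so the channel and the virus that carries it cannot be told apart. They state neither whether the months are the age of the animals or the time since the virus, nor whether ultrasound was applied to these hearts.

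The BCAAs leucine, isoleucine and valine are first stripped of their amino group by the mitochondrial aminotransferase BCAT2, and the resulting keto acids are then oxidised by the branched-chain keto acid dehydrogenase complex (BCKDH). A kinase, BCKDK, phosphorylates the complex and switches it off, and a phosphatase, PPM1K, removes the phosphate and switches it on. Separate arms then carry the products of each amino acid to acetyl-CoA or propionyl-CoA. Krüppel-like factor 15, encoded by Klf15, is a transcription factor of heart, muscle and liver that, in mouse heart and muscle, is known to raise BCAA breakdown genes, to follow the daily clock and to be induced by glucocorticoids.

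Krüppel-like factors bind CACCC-type elements, and the clock factors BMAL1 and CLOCK bind CACGTG. The stretches before the gene starts are therefore shown for the regulator, the transaminase and a BCKDH subunit. RNA of Bcat2 and Bckdhb was called in the opposite direction to Klf15 at 6 months, and neither was called at 2 months. Each line holds the 250 bases before the RefSeq gene start on the rat assembly GRCr8, on the plus strand, at chr4:124522765-124523014 for Klf15, chr1:105178889-105179138 for Bcat2 and chr8:93725027-93725276 for Bckdhb. Capitals mark CACGTG in Klf15 and, in the other two, CACCC on either strand, which reads GGGTG when it lies on the minus strand.
Klf15: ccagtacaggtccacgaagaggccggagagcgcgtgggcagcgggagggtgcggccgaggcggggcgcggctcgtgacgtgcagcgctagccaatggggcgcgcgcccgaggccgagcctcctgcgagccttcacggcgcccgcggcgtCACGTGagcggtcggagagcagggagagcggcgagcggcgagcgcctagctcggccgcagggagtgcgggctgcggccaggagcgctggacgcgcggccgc
Bcat2: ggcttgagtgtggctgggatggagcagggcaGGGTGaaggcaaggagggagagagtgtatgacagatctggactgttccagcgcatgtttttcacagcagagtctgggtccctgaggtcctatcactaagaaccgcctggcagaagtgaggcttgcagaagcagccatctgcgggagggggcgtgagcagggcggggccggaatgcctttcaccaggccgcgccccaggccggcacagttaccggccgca
Bckdhb: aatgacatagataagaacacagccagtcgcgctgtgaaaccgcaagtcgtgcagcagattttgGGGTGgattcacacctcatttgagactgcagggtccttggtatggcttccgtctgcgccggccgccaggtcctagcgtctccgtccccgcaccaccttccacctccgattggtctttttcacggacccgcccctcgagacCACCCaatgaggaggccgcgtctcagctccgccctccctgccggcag

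Promoters in this table run from 250 bases before to 50 bases after the start, and 8 of the 10 genes were matched; Bckdha and Ppm1k were not. CACCC, searched on both strands, stood in all 8 matched promoters and in 54.9% of all 33469 promoters of that length. The longer CCCCACCC, which contains CACCC, stood in those of Ivd and Mccc1 and in 9.46% of all promoters. CACGTG stood in the promoter of Klf15, starting at position -101 from the gene start, in none of the other 7, and in 6.42% of all promoters. The glucocorticoid response element, present in 0.439% of all promoters, and the D-box TTANNTAA, the element of clock output factors such as DBP, present in 5.84%, had no match in the 8. These are matches of letters in a short window and not measured binding.

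Library depth ran from 4696160 to 11296869 counts, at which 3 counts correspond to 0.639 and 0.266 CPM, the unit of counts scaled by library total. The channel transgene had 0 counts in all 5 WT libraries, 94 and 127 counts in ST at 2 months, 767 to 1667 counts in ST at 6 months and 610 to 1003 counts in ST at 8 months. Scaled by library total, it was 196.7, 90.4 and 209 CPM in ST replicates 1, 2 and 3 at 6 months. At 8 months it was 116 to 180 CPM. The 13 mitochondrially encoded genes are listed only in the 2-month table, where they took 14.8 to 18.1% of the counts, so levels are compared only within 2 months or among the later tables. Levels below are CPM scaled by TMM, and differences are log2 fold changes from edgeR's quasi-likelihood test with Benjamini-Hochberg adjustment over all genes tested. A gene is called at an adjusted p under 0.05, and each standard error (SE) is that of the log2 fold change. The samples are labelled biological replicates, and the p-values measure the spread between these samples. That spread was read by a chi-square per degree of freedom for each replicate pair, which grows with spread beyond sampling error. It also grows with library depth, and at 2 months it covers the mitochondrially encoded genes, so it is not compared between the tables. It was 2.12 to 2.31 in ST at 8 months, the shallowest libraries, and 7.68 in WT and 12.1 in ST at 2 months. At 6 months it was 1.93 for ST replicates 1 and 3, but 6.89 and 8.67 with ST replicate 2. For WT replicates 2 and 3 it was 2.13, but 7.51 and 8.49 with WT replicate 1. Why some pairs lay closer was not tested.

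At 2 months Klf15 was higher and Bckdha lower in ST than in WT hearts and no other BCAA gene was called, while at 6 months Klf15 was lower in ST hearts and 7 of the 9 BCAA genes were higher. At 2 months 1 of the 10 genes was called higher (Klf15) and 1 lower (Bckdha), against 2.70% of all 12121 genes tested called higher and 2.10% called lower. The median of the 10 log2 fold changes was -0.17, against -0.00044 for all genes. The count at 2 months was unstable: it came to 1 gene without WT replicate 1 and to 6 genes without ST replicate 2.

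At 6 months 7 of the 10 were called higher and 2 lower, against 19.9% of all 13253 genes called higher and 20.1% called lower. The 7 that rose were Bcat2, Bckdha, Bckdhb, Dbt, Ivd, Mccc1 and Hibadh, the 2 that fell were Klf15 and Ppm1k, and Bckdk was not called. The median of the 10 log2 fold changes was 0.32, against -0.0016 for all genes.

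The ST effect itself differed between the times for 9 of the 10 genes, in a model that held the 2-month and 6-month libraries with a term for the difference of their ST effects. The effect at 6 months minus that at 2 months was higher for the same 7 BCAA genes and lower for Klf15 and Ppm1k, against 10.2% of all 12658 genes called higher and 12.0% called lower. This compares differences and not levels, and the 2 times share no libraries.

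ST hearts at 8 months differed both from ST and from WT hearts at 6 months, with Klf15 between the 2 groups. Against ST at 6 months, 2 of the 10 were called higher (Klf15 and Ppm1k) and 6 lower, against 19.1% of all 12931 genes called higher and 20.5% called lower, with a median of -0.28 for the 10 and 0.019 for all genes. Against WT at 6 months, 3 were called higher (Bckdhb, Dbt and Hibadh) and 4 lower (Klf15, Bckdha, Bckdk and Ivd), against 17.8% of all 13095 genes called higher and 16.1% called lower, with a median of 0.06 for the 10 and -0.0081 for all genes. The comparisons of the 6-month and 8-month hearts share libraries, so their values stand side by side and were not correlated. The months lie in separate tables, and month and table cannot be told apart.

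**Figure D1:**
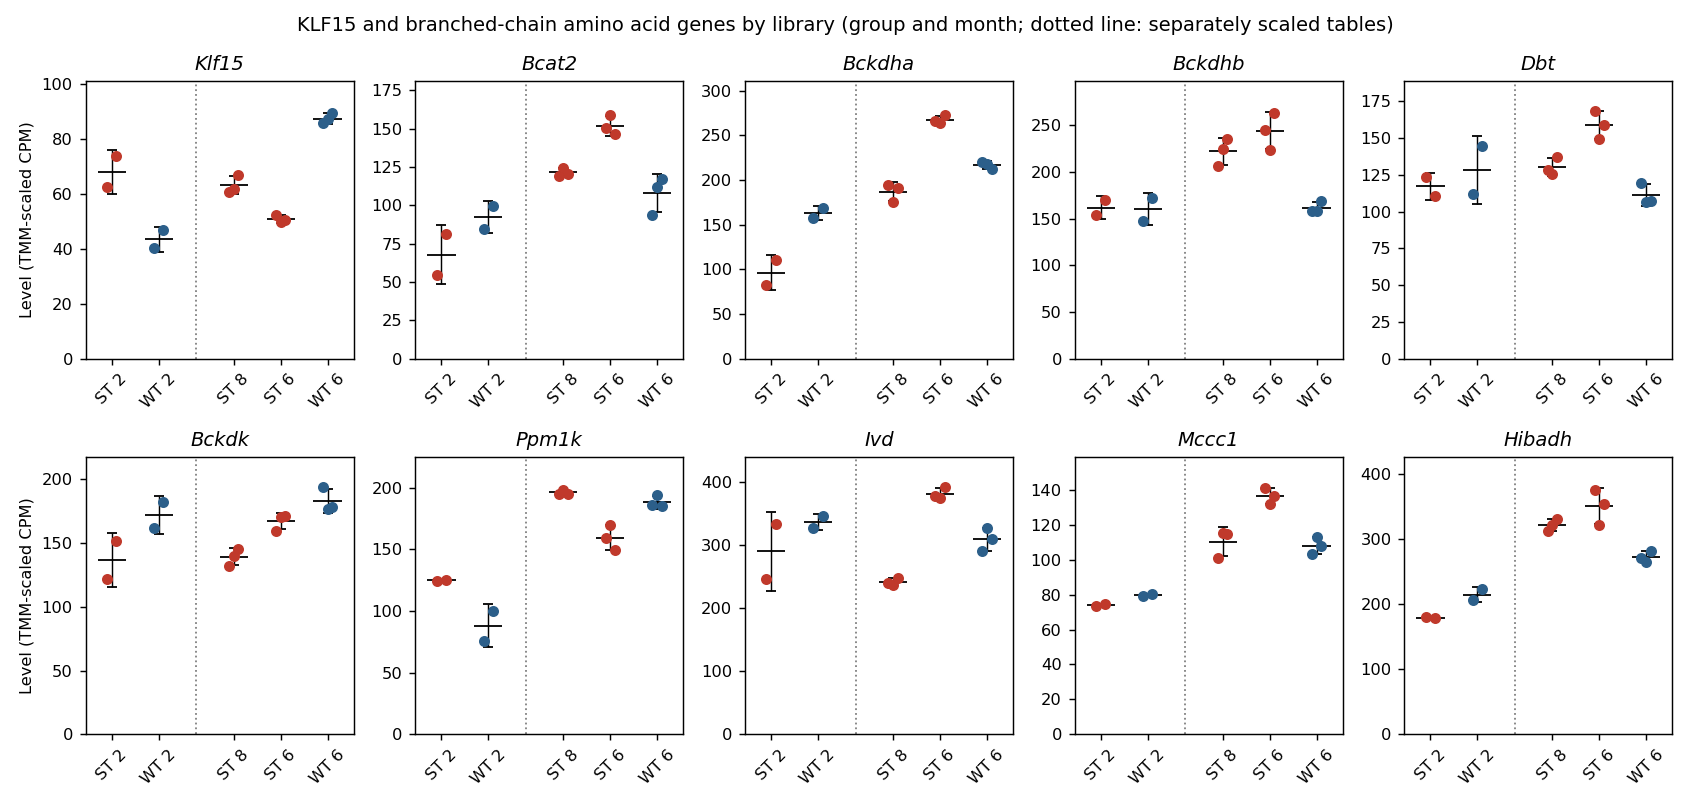
Level of each of the 10 genes in every library, in TMM-scaled CPM on axes that start at 0. Points are libraries of ST (red) and WT (blue) hearts, labelled with the group and the month, lines and bars are the mean and SD, and the dotted line parts the 2-month table from the later ones, which were scaled separately. ST libraries at 6 months lie below all WT libraries for Klf15 (49.7 to 52.4 against 85.8 to 89.5 CPM) and above them for Bckdhb, Dbt and 5 other BCAA genes.

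Klf15 was 62.4 and 73.7 CPM in ST hearts at 2 months, against 40.3 and 46.7 CPM in WT hearts. Both ST libraries lay above both WT libraries, and Klf15 rose by a log2 fold change of 0.65 (SE 0.14, adjusted p = 0.0134). Without WT replicate 1 the log2 fold change was 0.54 and not called, in a fit that leaves WT a single library. At 6 months Klf15 was 52.4, 49.7 and 50.6 CPM in ST hearts, against 85.8, 87.3 and 89.5 CPM in WT hearts. The groups were far apart next to the spread within each, and Klf15 fell by 0.78 on the log2 scale (SE 0.07, adjusted p = 5.12e-06). The difference between the 2 effects was -1.44 (SE 0.14, adjusted p = 2.91e-06), the largest in size among the 10 genes. At 8 months the 3 ST libraries had 60.8, 61.8 and 66.9 CPM, all between those of ST and of WT at 6 months. Klf15 was thus higher than in ST at 6 months by 0.31 (SE 0.07, adjusted p = 0.00496) and lower than in WT at 6 months, at -0.46 (SE 0.07, adjusted p = 0.000161). Among the later groups the order of levels was therefore WT at 6 months, ST at 8 months and ST at 6 months, from high to low, with no overlap.

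Bcat2, the mitochondrial aminotransferase of the first step, was 54.3 and 81.3 CPM in ST hearts at 2 months, against 84.8 and 99.6 CPM in WT hearts. Both ST libraries lay below WT, but they lay further from each other than the group means did, and the log2 fold change of -0.45 was not called (95% interval -0.80 to -0.09, adjusted p = 0.153). It was called with no filter on low counts (adjusted p = 0.0385) and without ST replicate 2, the higher ST library (log2 fold change -0.76, adjusted p = 0.000422), but without ST replicate 1 it shrank to -0.18 (adjusted p = 0.585). At 6 months Bcat2 was 150.3, 159 and 146 CPM in ST hearts, against 93.9, 112 and 117 CPM in WT hearts. All ST libraries lay above all WT libraries, and Bcat2 rose by 0.50 (SE 0.09, adjusted p = 0.000879). The effect at 6 months exceeded that at 2 months by 0.94 (SE 0.20, adjusted p = 0.00305). At 8 months Bcat2 was 119, 124 and 121 CPM in ST hearts, lower than in ST at 6 months by a log2 fold change of -0.33 (SE 0.06, adjusted p = 0.00145). All 3 of these libraries still lay just above those of WT at 6 months, where the difference of 0.18 was not called (95% interval 0.01 to 0.36, adjusted p = 0.0977). Without WT replicate 3 at 6 months it was 0.25 and called (adjusted p = 0.0424), and without WT replicate 1 it was 0.08 (adjusted p = 0.365).

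The complex itself has 3 parts: the E1 decarboxylase, made of an alpha subunit (Bckdha) and a beta subunit (Bckdhb), the E2 transacylase core (Dbt) and the E3 dehydrogenase (Dld), which it shares with other complexes. Bckdha, whose protein carries the phosphorylated sites, was 82.2 and 110 CPM in ST hearts at 2 months, against 157 and 169 CPM in WT hearts. ST libraries lay well below WT, and Bckdha was the only one of the 10 genes called lower at that time, at -0.77 (SE 0.15, adjusted p = 0.00475). At 6 months it was 266, 264 and 273 CPM in ST hearts, against 220.3, 218 and 212 CPM in WT hearts. Here ST libraries lay above WT, and Bckdha rose by 0.31 (SE 0.06, adjusted p = 0.00185). The difference between the effects was 1.06 (SE 0.15, adjusted p = 0.000101). At 8 months the ST hearts had 194.5, 175 and 191 CPM of Bckdha, below every library of either 6-month group. The log2 fold change was -0.52 against ST at 6 months (SE 0.06, adjusted p = 2.95e-05) and -0.20 against WT at 6 months (SE 0.07, adjusted p = 0.0238). The last of these calls was lost without WT replicate 2 (adjusted p = 0.0643) or without ST replicate 2 at 8 months (adjusted p = 0.126).

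Bckdhb was 154 and 170.4 CPM in ST hearts at 2 months, against 148 and 172 CPM in WT hearts. The groups overlapped, with a log2 fold change of 0.02 (95% interval -0.26 to 0.30, adjusted p = 0.962). At 6 months Bckdhb was 246, 224 and 264 CPM in ST hearts, against 158, 158 and 169 CPM in WT hearts, and it rose by 0.60 (SE 0.08, adjusted p = 7.57e-05), the largest rise among the 10. At 8 months it was 207, 225 and 235 CPM in ST hearts. These values overlapped those of ST at 6 months, with a log2 fold change of -0.14 (95% interval -0.30 to 0.02, adjusted p = 0.153) that was called without ST replicate 2 at 6 months (-0.20, adjusted p = 0.0212). They lay above all WT libraries at 6 months, with a rise of 0.47 (SE 0.07, adjusted p = 7.2e-05). The 2 subunits of E1 thus stood on opposite sides of the 6-month WT level in ST hearts at 8 months.

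Dbt was 123.5 and 111 CPM in ST hearts at 2 months, against 112 and 145 CPM in WT hearts, with overlap and no call (log2 fold change -0.13, 95% interval -0.43 to 0.17). At 6 months Dbt was 168.5, 149 and 159 CPM in ST hearts, against 119.8, 106 and 107 CPM in WT hearts. ST libraries lay above WT, and Dbt rose by 0.52 (SE 0.07, adjusted p = 0.000186). At 8 months Dbt was 128, 126 and 137 CPM in ST hearts, between the 6-month groups. It was lower than in ST at 6 months, at -0.29 (SE 0.07, adjusted p = 0.00455), and higher than in WT at 6 months by 0.24 (SE 0.07, adjusted p = 0.0129). This second call was lost when any of 3 libraries was left out (WT replicate 2 or 3, or ST replicate 3 at 8 months, adjusted p 0.0503 to 0.0681) and with scaling by library total (adjusted p = 0.0586). The effect at 6 months exceeded that at 2 months by 0.57 for Bckdhb (adjusted p = 0.00743) and by 0.63 for Dbt (adjusted p = 0.0083), but without WT replicate 2 at 2 months neither was called (adjusted p = 0.0502 and 0.0624).

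**Figure D2:**
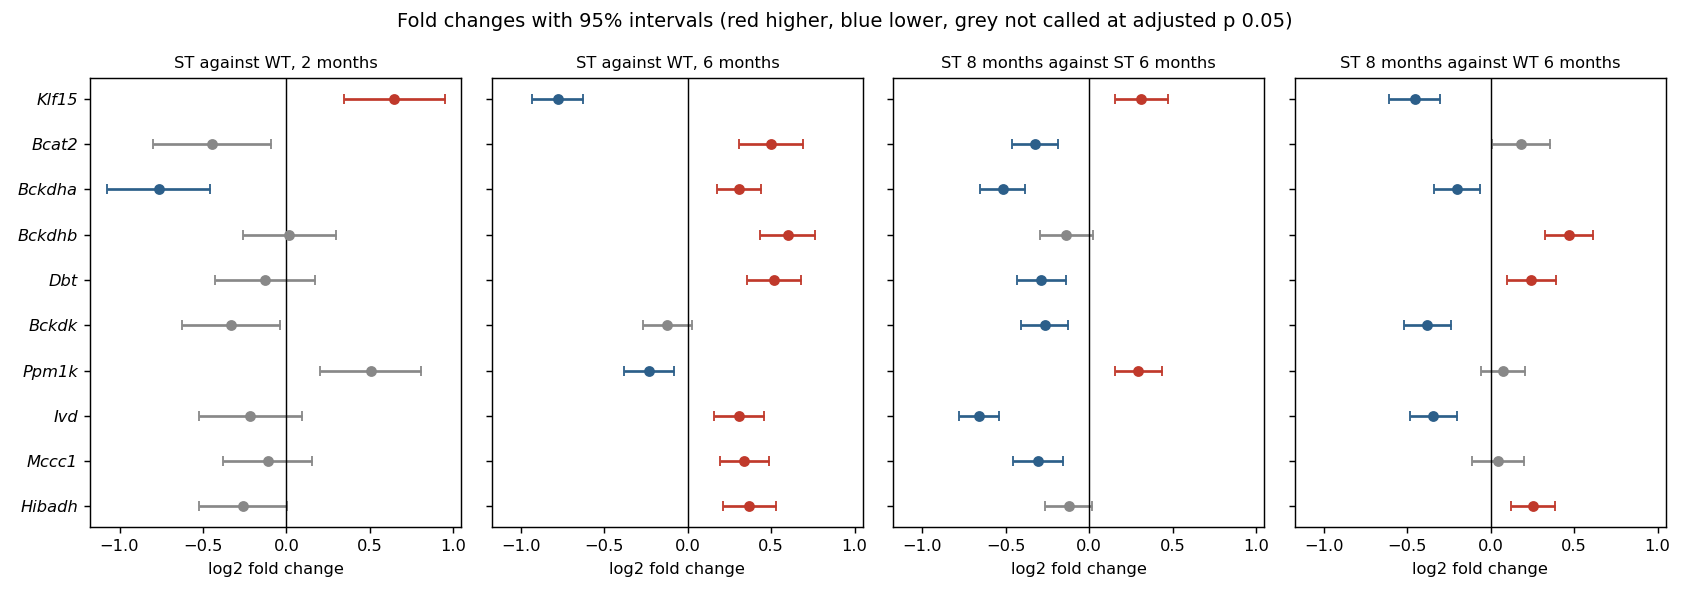
log2 fold changes of the 10 genes, one row a gene, with 95% intervals, for ST against WT at 2 months and at 6 months and for ST at 8 months against each 6-month group. Red is called higher, blue called lower and grey not called at an adjusted p of 0.05: Klf15 lies right of 0 at 2 months (0.65) and left of it at 6 months (-0.78), with Bckdha the other way round (-0.77 and 0.31).

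Of the pair that sets the activity of the complex, Bckdk, which inactivates the complex, was 122 and 151.5 CPM in ST hearts at 2 months, against 161.5 and 182 CPM in WT hearts, and 159.8, 171 and 171.5 CPM in ST hearts at 6 months, against 194, 177 and 178 CPM in WT hearts. ST libraries lay below WT at both times without a call, at -0.33 (95% interval -0.63 to -0.04, adjusted p = 0.207) and -0.12 (95% interval -0.27 to 0.02, adjusted p = 0.163). The first was called without ST replicate 2 (-0.50, adjusted p = 0.0103) and shrank to -0.18 without ST replicate 1 (adjusted p = 0.561), and the second was called with scaling by library total (-0.24, adjusted p = 0.0148), which moved the median of all genes by -0.12 at 6 months. At 8 months Bckdk was 132, 140.2 and 145.5 CPM in ST hearts, below every 6-month library of either group. It was lower than in ST at 6 months, at -0.27 (SE 0.06, adjusted p = 0.00581), and lower than in WT at 6 months, at -0.38 (SE 0.07, adjusted p = 0.000415). The ST effects at the 2 times differed by 0.20, not called (95% interval -0.10 to 0.50).

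Ppm1k, which activates the complex, was 124 and 125 CPM in ST hearts at 2 months, against 76.0 and 100.4 CPM in WT hearts. Both ST libraries lay above WT, and the log2 fold change of 0.51 (95% interval 0.20 to 0.81) just missed the threshold at an adjusted p of 0.0517. It passed with scaling by library total, with no filter, with a filter of 5 CPM, with limma-voom and with the replicate number as a block (adjusted p 0.00863 to 0.0481). It also passed without WT replicate 2 or either ST replicate (adjusted p 0.0148 to 0.0488), but without WT replicate 1 it was 0.32 with an adjusted p of 0.744. At 6 months Ppm1k was 159.7, 169.7 and 149.6 CPM in ST hearts, against 186, 194 and 185 CPM in WT hearts. ST libraries now lay below WT, and Ppm1k fell by 0.23 on the log2 scale (SE 0.07, adjusted p = 0.0187). This call was lost without WT replicate 2, ST replicate 1 or ST replicate 3 (adjusted p 0.0621 to 0.0948). The 2 effects differed by -0.75 (SE 0.15, adjusted p = 0.00195), the same sign as for Klf15. At 8 months Ppm1k was 195, 198 and 195 CPM in ST hearts, higher than in ST at 6 months by 0.30 (SE 0.07, adjusted p = 0.00325). Against WT at 6 months the difference was 0.07 (95% interval -0.06 to 0.21, adjusted p = 0.398).

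The ratio of Bckdk to Ppm1k counts within a library does not depend on scaling. Its log2 was -0.03 and 0.27 in ST hearts at 2 months, against 1.09 and 0.86 in WT hearts. The groups did not overlap, and the means differed by -0.85, but an exact permutation test of 2 against 2 cannot go below p = 0.333, which is what it gave. At 6 months the mean was 0.07 ± 0.11 in ST and -0.04 ± 0.10 in WT hearts (SD, n = 3 each), and the ranges overlapped (difference 0.11, exact permutation p = 0.3). At 8 months the ST libraries had -0.56, -0.50 and -0.42, all below every 6-month library. The mean was lower by 0.56 than in ST at 6 months and by 0.45 than in WT at 6 months (two-sided exact permutation p = 0.1 for each, the smallest that 3 against 3 allows). A change in this ratio shows unequal change of the 2 genes and not which of them changed, and RNA levels say nothing of the phosphorylation of the complex, which was not measured.

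**Figure D3:**
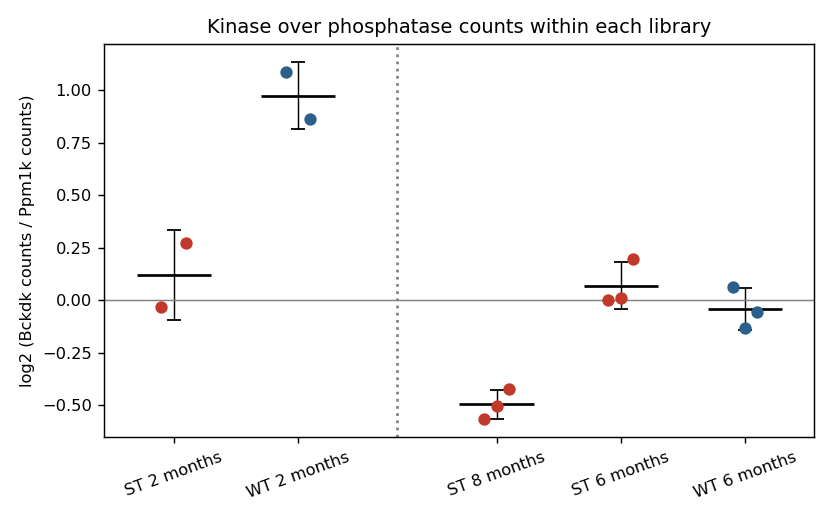
log2 of Bckdk over Ppm1k counts in each library, with points for libraries, lines for means and bars for SD, ST in red and WT in blue, and a dotted line between the separately made tables. The 3 ST libraries at 8 months lie between -0.56 and -0.42, below the 6-month libraries of both groups.

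Below the complex, Ivd (isovaleryl-CoA dehydrogenase) and Mccc1 (the biotin-carrying subunit of methylcrotonyl-CoA carboxylase) serve leucine, and Hibadh (3-hydroxyisobutyrate dehydrogenase) serves valine. Ivd was 246 and 334 CPM in ST hearts at 2 months, against 327 and 345 CPM in WT hearts. The groups overlapped because of the higher ST library, replicate 2, and the log2 fold change of -0.22 was not called (95% interval -0.53 to 0.09). Without that library it was -0.45 (adjusted p = 0.0146), and without ST replicate 1 it was -0.01 (adjusted p = 0.983). At 6 months Ivd was 378, 374 and 391.5 CPM in ST hearts, against 291, 327 and 309 CPM in WT hearts, a rise of 0.31 (SE 0.07, adjusted p = 0.00394). At 8 months Ivd was 240.1, 236 and 247.5 CPM in ST hearts, below every 6-month library. It was lower than in ST at 6 months, at -0.66 (SE 0.06, adjusted p = 1.59e-06), the largest fall among the 10 genes, and lower than in WT at 6 months, at -0.34 (SE 0.07, adjusted p = 0.000894).

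Mccc1 was 73.5 and 74.4 CPM in ST hearts at 2 months, against 79.3 and 80.3 CPM in WT hearts. ST lay below WT by little, at -0.11 with no call (95% interval -0.38 to 0.16). At 6 months Mccc1 was 141, 132 and 137 CPM in ST hearts, against 103, 113 and 108 CPM in WT hearts, a rise of 0.34 (SE 0.07, adjusted p = 0.00214). At 8 months it was 101, 115 and 115 CPM in ST hearts. That was lower than in ST at 6 months, at -0.31 (SE 0.07, adjusted p = 0.00395), and overlapped WT at 6 months, with a difference of 0.04 (95% interval -0.11 to 0.20).

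Hibadh was 179.9 and 178 CPM in ST hearts at 2 months, against 206 and 223 CPM in WT hearts, a difference of -0.26 with no call (95% interval -0.52 to 0.01, adjusted p = 0.282). At 6 months Hibadh was 375, 321 and 353 CPM in ST hearts, against 269.7, 264 and 282 CPM in WT hearts, a rise of 0.37 (SE 0.07, adjusted p = 0.00185). At 8 months it was 312, 322 and 330.1 CPM in ST hearts, above all WT libraries at 6 months by 0.25 (SE 0.06, adjusted p = 0.00514). Those values overlapped ST at 6 months, with a difference of -0.12 (95% interval -0.26 to 0.02, adjusted p = 0.149) that was called without ST replicate 2 at 6 months (-0.18, adjusted p = 0.0162). Against WT at 6 months, ST hearts at 8 months thus had more Hibadh, less Ivd and no detectable difference in Mccc1. The 6-month effects exceeded the 2-month effects by 0.62 for Hibadh (adjusted p = 0.00252), 0.44 for Mccc1 (adjusted p = 0.0152) and 0.51 for Ivd (adjusted p = 0.0243). The Ivd difference was lost when any of 5 libraries was left out (adjusted p 0.0502 to 0.109), and that of Mccc1 without WT replicate 1 at 2 months (adjusted p = 0.0568).

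The rest of the pathway was read from 25 enzymes, from transamination to the propionyl-CoA arm, of which 7 are among the 10 genes. At 6 months 9 of the other 18 were called higher in ST hearts and 1 lower, with a median of 0.21. The shares of all genes called higher and lower were 19.9% and 20.1%. At 2 months none of the 18 was called by edgeR (3 had an unadjusted p under 0.05), with a median of -0.16. The difference of the ST effects, 6 minus 2 months, was called higher for 9 of the 18 and lower for none. The other 9 were not called, and the values ran from -0.22 to 1.355. At 8 months 2 of the 18 were called higher and 7 lower than in ST at 6 months, and 8 higher and 3 lower than in WT at 6 months. Of all genes, 19.1% were called higher and 20.5% lower than in ST, and 17.8% and 16.1% than in WT. For the difference of the ST effects these shares were 10.2% and 12.0%.

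Bcat1, the cytosolic aminotransferase, had the largest log2 fold change of the 25 at 6 months. It was 7.10, 11.3 and 8.91 CPM in ST hearts, against 2.46, 3.23 and 3.34 CPM in WT hearts, a rise of 1.61 (SE 0.23, adjusted p = 0.000173). At 8 months it was 2.97, 2.07 and 2.36 CPM in ST hearts, lower than in ST at 6 months by a log2 fold change of -1.90. In the isoleucine arm Acadsb (short/branched-chain acyl-CoA dehydrogenase) rose by 0.54 at 6 months, Echs1 (enoyl-CoA hydratase) by 0.30 and Acat1 (acetoacetyl-CoA thiolase) by 0.25. Acadsb was lower at 8 months than in ST at 6 months, at -0.97, and lower than in WT at 6 months, at -0.41. In the valine arm Hibch (3-hydroxyisobutyryl-CoA hydrolase) rose by 0.24. Aldh6a1 (methylmalonate semialdehyde dehydrogenase) of that arm was lower in ST hearts at 8 months than in WT at 6 months, at -0.38 (adjusted p = 0.000156). Hibch, like Hibadh, was called higher in that comparison (0.25, adjusted p = 0.0120). The 4 genes of the arm thus split, with 2 called higher, 1 lower and a median of 0.06. Of all genes, 17.8% were called higher and 16.1% lower. The summed level of the arm, in which abundant genes weigh most, was 1013 to 1049 CPM in ST at 8 months. It was 1142 to 1168 CPM in WT at 6 months. In the propionyl-CoA arm Pcca and Pccb, which encode the 2 subunits of propionyl-CoA carboxylase, went opposite ways at 6 months, Pcca up by 0.46 (adjusted p = 0.000225) and Pccb down at -0.28 (adjusted p = 0.0186), and Mcee (methylmalonyl-CoA epimerase) rose by 0.53. Dld rose by 0.26 (adjusted p = 0.00686).

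**Figure D4:**
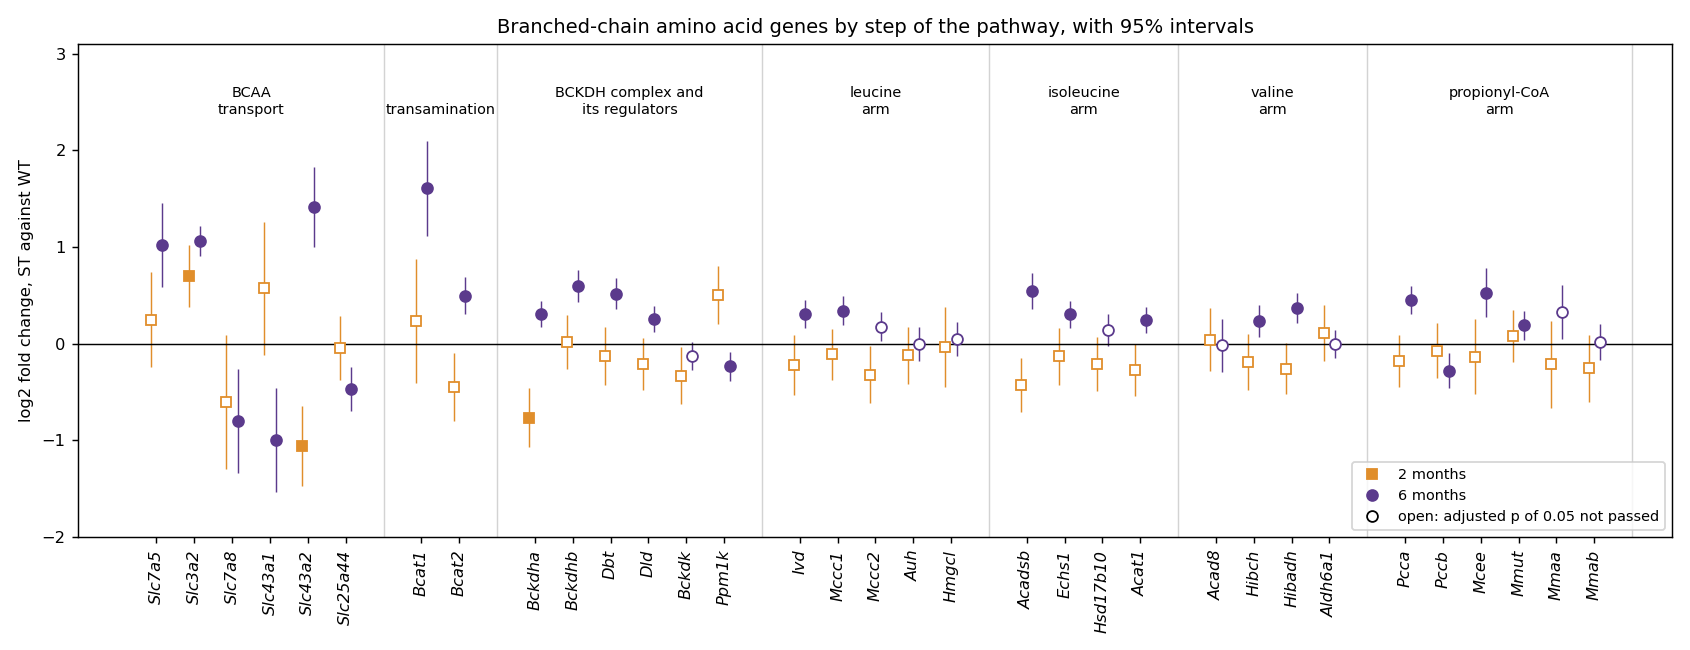
log2 fold changes of ST against WT hearts at 2 months (squares) and 6 months (circles) for the genes of BCAA transport and breakdown, in order of their step, with 95% intervals. Filled symbols are called. From transamination onward the circles lie mostly above 0, with Bcat1 highest at 1.61 and Ppm1k and Pccb called below 0, while of the squares there only Bckdha is called, at -0.77.

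BCAA carriers split. Slc3a2, the heavy chain shared by amino acid exchangers, was called higher in ST hearts at 2 months (0.70, adjusted p = 0.0127) and at 6 months (1.06, adjusted p = 5.38e-07). It was 123.2, 115 and 118 CPM in ST hearts at 6 months, against 59.4, 58.5 and 53.0 CPM in WT hearts, and 60.6, 56.1 and 59.5 CPM in ST hearts at 8 months, where it did not differ detectably from WT at 6 months (0.06, adjusted p = 0.622). Its partner Slc7a5 (LAT1) rose by 1.02 at 6 months and was lower at 8 months than in ST at 6 months, at -1.68. Slc43a2 (LAT4) was called lower at 2 months (-1.05) and higher at 6 months (1.42), a difference of 2.46 (SE 0.29, adjusted p = 2.39e-05). Slc7a8, Slc43a1 and the mitochondrial BCAA carrier Slc25a44 were called lower at 6 months, at -0.80, -0.995 and -0.47.

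E3 is shared with the pyruvate and 2-oxoglutarate dehydrogenases, and 7 genes of those and related complexes were read beside BCKDH. At 6 months 4 were called higher and 1 lower in ST hearts, with a median of 0.21, among them Pdhx (the E3-binding protein, 0.66), Ogdh (0.33) and Dlst (0.27). None of the 7 was called by edgeR at 2 months (3 had an unadjusted p under 0.05), and at 6 months the lower one was Dhtkd1 (-0.49). At 6 months the shares of all genes called higher and lower were 19.9% and 20.1%.

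Genes known from mouse heart or muscle to be raised by KLF15 did not follow its RNA as a block. Of 10 such genes, 4 were called higher at 2 months, when Klf15 was higher (Pdk4, Glul, Lpl and Prodh), and none lower. The shares of all genes called higher and lower at 2 months were 2.70% and 2.10%. At 6 months 3 were called higher (Pdk4, Glul and Kcnip2) and 2 lower (Prodh and Slc27a1), close to the 19.9% and 20.1% of all genes called higher and lower. In ST hearts at 8 months, where Klf15 was higher than in ST at 6 months, 1 was called higher and 3 lower than at 6 months. In that comparison 19.1% of all genes were called higher and 20.5% lower. Prodh (proline dehydrogenase) had the same signs as Klf15: its log2 fold change was 0.50 at 2 months and -0.95 at 6 months in ST hearts, and 0.60 at 8 months against ST at 6 months. Pdk4, the kinase that inactivates pyruvate dehydrogenase, rose at both times, by 1.92 at 2 months and by 2.98 at 6 months. It was 768, 1037 and 867 CPM in ST hearts at 6 months, against 132, 109.8 and 97.3 CPM in WT hearts.

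Genes that KLF15 is known to restrain in mouse heart, all 5 also general signs of cardiac stress, were higher in ST hearts at 6 months (Nppa, Nppb, Ccn2, Myh7 and Acta1, 5 of 5 called). At 2 months 2 of the 5 were called lower (Nppb and Acta1) and none higher. The share of all genes called higher was 19.9% at 6 months, and 2.10% were called lower at 2 months. Nppb, which encodes the natriuretic peptide BNP, had a log2 fold change of -1.38 at 2 months and 3.87 at 6 months. Myh7, the slow myosin heavy chain, rose by 2.51 at 6 months. At 8 months all 5 were still called higher than in WT at 6 months, Myh7 by 0.81 and Nppb by 3.17, against 17.8% of all genes. Compared with ST at 6 months only Myh7 was called lower (-1.71) and none higher, where 20.5% of all genes were called lower and 19.1% higher. Nppa (0.003), Nppb (-0.71), Ccn2 (-0.001) and Acta1 (-0.15) were not called in that comparison. Of these, Nppb had an unadjusted p of 0.0280 by edgeR (adjusted p = 0.0655).

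Clock and glucocorticoid genes moved in the same comparisons, and their part in the Klf15 values was not tested. Of 15 clock genes, 5 were called higher and 8 lower in ST hearts at 6 months, and 1 higher and 3 lower at 2 months. The shares of all genes called higher and lower were 19.9% and 20.1% at 6 months and 2.70% and 2.10% at 2 months. Dbp, a clock output gene, was 28.7, 28.6 and 26.6 CPM in ST hearts at 6 months, against 211, 214 and 221 CPM in WT hearts, and 66.3, 71.6 and 63.3 CPM in ST hearts at 8 months. Its log2 fold change at 6 months was -2.94, and that of Bhlhe41, a clock repressor, was -2.66. The hour at which hearts were taken is not given in the labels, so a difference in hour and a difference in clock RNA cannot be told apart. Of 10 genes induced by glucocorticoids, 3 were called higher at 2 months and none lower (Fkbp5, Tsc22d3 and Zbtb16), 5 higher and 2 lower at 6 months, and 1 higher and 7 lower at 8 months against ST at 6 months. For the last of these comparisons the shares of all genes were 19.1% and 20.5%. Fkbp5, a textbook glucocorticoid target, had log2 fold changes of 0.79 at 2 months, 0.52 at 6 months and -1.995 at 8 months against ST at 6 months. Cdkn1a and Errfi1, which other stress signals also raise, were up by 2.57 and 1.57 at 6 months.

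The hearts were bulk tissue, in which fewer cells of a type and less RNA per cell cannot be told apart. Beside the counts below, 2.70% of all genes were called higher and 2.10% lower at 2 months, and 19.9% and 20.1% at 6 months. For ST at 8 months these shares were 19.1% and 20.5% against ST at 6 months. Against WT at 6 months they were 17.8% and 16.1%. Heart muscle markers stood at 104400.4 to 110019.5 CPM in sum in ST hearts at 6 months, against 109830.6 to 118827.7 CPM in WT hearts, and 3 of the 10 were called higher and 1 lower (Myh6, -0.46). In ST hearts at 8 months the sum was 123063.8 to 123855.1 CPM, and 7 of the 10 were called higher than in ST at 6 months and 1 lower. Of the 8 smooth muscle and pericyte markers 6 were called higher at 6 months and none lower, with sums of 400 to 571 CPM in ST and 289 to 372 CPM in WT hearts. Of the 8 fibroblast markers 2 were called higher and 4 lower at 6 months, with sums of 1183 to 1288 CPM in ST and 1386 to 1519 CPM in WT hearts. All 5 erythroid markers tested were called higher at 6 months, with sums of 672 to 747 CPM in ST and 373 to 496 CPM in WT hearts. At 2 months 1 of 4 tested was called higher (Hba-a2, 1.30, adjusted p = 7.49e-05), with sums of 303 to 397 CPM in ST and 145.5 to 179.7 CPM in WT hearts. Of the 8 endothelial markers 4 were called higher at 8 months than in ST at 6 months and none lower, with sums of 1295.0 to 1361 CPM in ST at 8 months and 1035 to 1147 CPM in ST at 6 months, and 5 were called higher than in WT at 6 months (924 to 1147 CPM). At 8 months 4 of the 8 macrophage markers were called lower than in ST at 6 months and none higher, with sums of 105.5 to 119.9 CPM in ST at 8 months and 134 to 187 CPM in ST at 6 months. At 2 months none of the 9 heart muscle markers tested was called by edgeR (2 had an unadjusted p under 0.05), with sums of 62546.8 to 73807.0 CPM in ST and 71297.4 to 74649.0 CPM in WT hearts. The mesothelial list summed to 18.0 to 21.7 CPM in ST and 10.5 to 10.7 CPM in WT hearts at 2 months. Msln and Upk3b were called higher at that time. At 6 months both were called lower, but Wt1 was called higher (0.89, adjusted p = 6.84e-05). The sums then overlapped, at 29.5 to 32.9 CPM in ST and 23.4 to 36.4 CPM in WT hearts. The part of these shifts in the values of the 10 genes was not tested. Fat also uses this pathway: the fat-cell list summed to 761 to 885 CPM in ST and 538 to 609 CPM in WT hearts at 6 months, almost all of it Plin4, which heart muscle makes too, while Adipoq, Lep, Plin1, Cidec and Retn had 0 or 1 count in every library.

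The genes whose pattern over the 9 later libraries lay nearest to that of Klf15 were Pafah2, Pla2g5, Hand2, Rreb1 and Abhd18. Likeness was the root mean square difference of centred log2 CPM, and it ran from 0.06 for Pafah2 to 0.08 for Abhd18 among 11880 candidate genes, where the spread of Klf15 itself was 0.32. All 5 were called lower in ST hearts at 6 months, from -0.68 for Rreb1 to -0.89 for Abhd18, which their choice fixes. Over the 4 libraries of 2 months, which the choice did not use, the same measure ran from 0.16 for Abhd18 to 0.56 for Hand2, against 0.34 for the spread of Klf15. None of the 5 was called at 2 months by edgeR, with log2 fold changes from -0.48 for Hand2 to 0.33 for Abhd18, and 2 had an unadjusted p under 0.05 (0.0230 for Hand2 and 0.0431 for Abhd18).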

How the data were processed

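Bulk RNA-seq of heart tissue was deposited by the authors with values that are expected counts per gene, not scaled between samples. The aligner, counter and their settings are not given in the sources used here. Per the submitters' processing notes the builds are GRCm38 and mm10, both of mouse, while the gene names are those of rat. Positions come only from RefSeq on GRCr8.

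The expected counts were rounded. Each comparison used its own libraries and the names shared by its tables, filterByExpr and TMM, and was tested with edgeR 4.0.16 (quasi-likelihood F test, two-sided) in R 4.3.3, with Benjamini-Hochberg adjustment over all genes tested. The script was checked on simulated counts. The SE is back-calculated as the size of the log2 fold change over root F. Levels were scaled within the 2-month table and jointly over the later tables. Intervals and floors of 3 counts cover counting error or the fitted spread only.

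Groups came from sample titles. The 10 genes and the gene lists were chosen with earlier results of these data known. Text names all 10 genes, per pathway list up to 3 other genes called at 6 months with the smallest p, per clock, glucocorticoid or cell-type list up to 2, and the 5 profiles nearest to Klf15. Lpl, Kcnip2, Slc27a1, Nppa, Ccn2, Fkbp5, Tsc22d3, Zbtb16, Slc7a8, Slc43a1, Slc25a44, Dhtkd1, Aldh6a1, Upk3b and the fat-cell markers at 0 or 1 count were named after their values were seen. Alternatives were library-total scaling, other filters, limma-voom 3.58.1, DESeq2 1.42.0, a replicate block, each library left out in turn, and fits from which haemoglobin genes and those of the mitochondrial genome were dropped.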

Additional observations from a re-analysis of the deposited data

Results flagged for a closer look

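The effect of the transgene group differed between 6 and 2 months, by a test of the difference itself (edgeR's interaction term, log2 fold change at 6 months minus that at 2 months), for 9 of the 10 genes. The difference was -1.44 for Klf15 (adjusted p = 2.91e-06) and -0.75 for Ppm1k (adjusted p = 0.00195). It was 1.06 for Bckdha (adjusted p = 0.000101), 0.94 for Bcat2 (adjusted p = 0.00305), 0.63 for Dbt (adjusted p = 0.0083), 0.62 for Hibadh (adjusted p = 0.00252) and 0.57 for Bckdhb (adjusted p = 0.00743). It was 0.51 for Ivd (adjusted p = 0.0243) and 0.44 for Mccc1 (adjusted p = 0.0152). The 2-month and later tables were made over different gene lists, and time and table cannot be told apart. No group held the 4 samples that a search for a lone outlying sample needs.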

How the results depend on the processing

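Of 818 values under alternatives for the 10 genes, their counts and the Bckdk to Ppm1k ratio, 777 kept their direction and side of the threshold (for counts, stayed within 1.5 times; for ratios, within 1 SD), 16 came to pass it, 18 ceased to pass it, 3 counts moved further and 4 reversed. The 4 were never called: at 2 months Bckdhb (0.02) ranged from -0.087 to 0.12 over libraries left out, below 0 without WT replicate 1 or ST replicate 2, and Dbt (-0.13) from -0.30 to 0.058, above 0 without WT replicate 2. Mccc1 at 8 months against WT at 6 months (0.04) was -0.020 with library-total scaling. The number of the 10 genes called at 2 months was 2, and 4 with no filter on low counts. It ranged from 1 to 6 when each library was left out, and Klf15 at 2 months from 0.53 to 0.76, not called without WT replicate 1 (0.54, adjusted p = 0.302). The cause was not tested, though each such fit leaves 1 group with a single library, assumed to vary like the other. At 6 months the count ran from 8 to 9 over libraries left out. Replicate numbers are shared between groups, and the deviations of same-numbered libraries correlated weakly, from 0.011 to 0.19. At 2 months, with 2 libraries a group, both values are the same by construction (0.067). The numbers were treated as naming samples only, and whether same-numbered libraries share a batch was not tested. With the replicate block, 3 genes were called at 2 months, Ppm1k being the added one (0.52, adjusted p = 0.0401), and no other call of the 10 genes changed. With 2 libraries a group at 2 months, intervals reached about 0.3 on either side of a log2 fold change, but a call needed more. Bckdk (-0.33), Bcat2 (-0.45) and Ppm1k (0.51) had intervals that left out 0 and were still not called after adjustment over all genes tested. The genes called were Klf15 (0.65) and Bckdha (-0.77). A gene not called at 2 months may therefore have changed by more than 0.3.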
